A study of Mus musculus with 2 samples.

Results

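The Snail, Twist and Zeb genes were read in endocardial lineage cells of embryonic mouse hearts whose genotype leaves them with or without a working Tbx20 allele. These 6 genes, Snai1, Snai2, Twist1, Twist2, Zeb1 and Zeb2, were chosen by symbol from the 18193 genes that the platform annotation names, with every probe set that names only that gene, 14 in all. The cells came from hearts at embryonic day 12.5, were sorted as Tie2Cre lineage cells lacking the blood markers CD41, CD45 and Ter119, and gave 1 array per genotype. Control cells were Tie2Cre;Tbx20 +/loxP and mutant cells Tie2Cre;Tbx20 loxP/-. Both genotypes therefore carry the Cre transgene and a floxed allele, and the control animals still have 1 wild-type allele where the mutants have a null allele in every cell. Tie2Cre is active in endothelium and endocardium, so the sorted cells can include any descendant of these, the cushion mesenchyme among them. The sources used here do not say whether embryos were pooled.

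With 1 array per genotype no value below has a replicate, and no test between genotypes could be made. In bulk cells, fewer cells of a type and less RNA per cell cannot be told apart. Tbx20 gave signal on both arrays, and the mutant signals of its 3 probe sets were 84.0%, 85.9% and 60.2% of control. The labels do not give the deleted exons, so it is unknown if any of these probe sets lies in the deleted part. A probe set counted as measured where it lay above the array's median on both arrays, 91.3 on the control array and 82.4 on the mutant array, called the floor below. Of all genes, 10665 were measured by this rule, with a median log2 ratio of mutant over control of -0.01 and an SD of 0.38 over genes. The endothelial markers of the sorted lineage were present on both arrays, with 10 of 10 listed genes above the floor and a summed signal of 57381 on the control array and 59574 on the mutant array.

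Epithelial to mesenchymal transition, EMT, is the step by which cells leave a sheet, lose their junctions and become migratory. In the heart, endocardial cells of the outflow tract and atrioventricular canal undergo it to fill the cushions from which valves form. Snail proteins are zinc finger repressors, Zeb proteins carry separate clusters of zinc fingers around a homeodomain, and both bind E-boxes of the form CAGGTG, among others, and repress cadherin and junction genes. Twist proteins are basic helix-loop-helix factors that bind E-boxes of the general form CANNTG as dimers with E proteins, and Id proteins take E proteins away from them. TGF-beta, BMP and Notch signals act upstream of these factors in the cushions.

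The starts of these genes show which of the motifs stand close by, and 3 of them are printed because Snai1 and Twist1 were lower on the mutant array while Twist2 was higher. RefSeq promoter windows of GRCm38.p6 were on hand for 4 of the 6 genes, in 7 windows, and the 250 bases before each start were searched on both strands for the general E-box CANNTG, its form CAGGTG and the T-box motif AGGTGTGA. Every CAGGTG is also a CANNTG, and a CAGGTG followed by TGA overlaps the T-box motif. Sequences run 5′ to 3′ along the gene, with matches in capitals.
Snai1: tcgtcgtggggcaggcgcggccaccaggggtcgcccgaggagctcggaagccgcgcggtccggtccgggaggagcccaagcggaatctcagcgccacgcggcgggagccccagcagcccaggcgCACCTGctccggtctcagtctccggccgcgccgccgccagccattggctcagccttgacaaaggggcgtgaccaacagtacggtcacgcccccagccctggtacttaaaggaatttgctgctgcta
Twist1: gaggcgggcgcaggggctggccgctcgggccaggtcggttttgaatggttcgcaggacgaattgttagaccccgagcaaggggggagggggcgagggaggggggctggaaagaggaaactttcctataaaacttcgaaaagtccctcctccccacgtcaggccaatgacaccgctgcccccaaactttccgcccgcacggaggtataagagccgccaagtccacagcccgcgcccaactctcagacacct
Twist2: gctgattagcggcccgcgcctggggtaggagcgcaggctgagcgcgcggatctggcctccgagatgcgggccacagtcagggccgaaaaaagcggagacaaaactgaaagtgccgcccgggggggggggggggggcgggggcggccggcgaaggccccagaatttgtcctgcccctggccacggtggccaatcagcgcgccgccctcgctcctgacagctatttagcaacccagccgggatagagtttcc
They lie at chr2:167537945-167538194, chr12:33957421-33957670 and chr1:91801211-91801460, each on the plus strand. The Snai1 window held 1 match, CACCTG from -126 to -121 relative to the start, which is CAGGTG on the other strand. The Twist1 and Twist2 windows and all 4 windows of Zeb2 held none of the motifs searched. Among 32817 windows of the same length, 66.2% held CANNTG, 17.2% CAGGTG and 1.12% AGGTGTGA. These matches describe letters only, and whether a factor binds there was not measured.

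Of the 6 genes, 5 were lower on the mutant array and Twist2 was higher. Over all measured genes 51.0% were lower. The median log2 ratio of the 6 was -0.43, against -0.01 for all measured genes. None of the 6 was at least 2-fold lower, a size that 1.46% of all measured genes reached. Snai2 was the single gene of the 6 that was at least 1.5-fold lower, as were 6.61% of all measured genes. On the level of probe sets, 11 of the 14 were above the floor on both arrays, 10 of them lower and 1 higher in the mutant. Zeb1 and Zeb2 gave 3 of the 11 each, so this count repeats genes. Among all measured probe sets naming 1 gene, 9656 of 19273 were lower. Of the 14 member probe sets, 1 was above the floor on the control array only and 2 were below it on both.

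**Figure D1:**
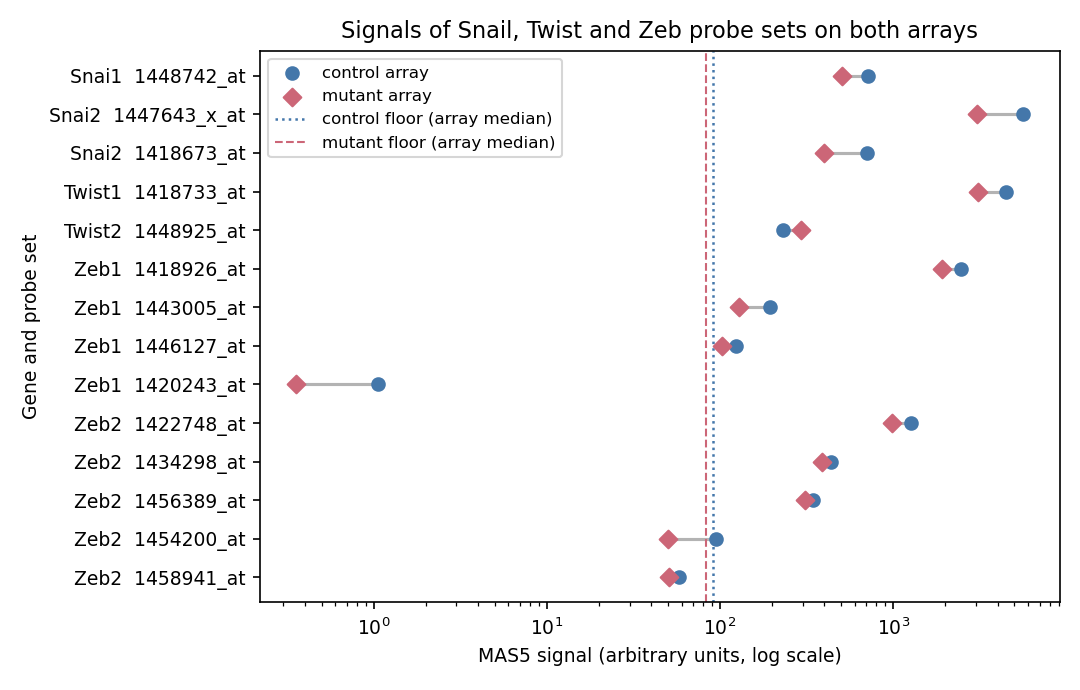
MAS5 signals of the 14 probe sets of the Snail, Twist and Zeb genes on a log axis, with the control array as circles, the mutant array as diamonds and a line joining the 2 readings of a probe set. The vertical lines mark the floors of 91.3 and 82.4, and Twist2 is the gene whose diamond lies to the right of its circle, at 295 against 232.

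Ratios of dim probe sets are noisier than those of bright ones, and the spread between probe sets of 1 gene was the sole measure of error within the arrays. It covers probe error, not animals or preparations. The SD of the log2 ratio between probe sets of 1 gene was 0.45 below a signal of 200, 0.37 from 200 to 1000 and 0.28 from 1000 up. It came from 438, 3198 and 1538 genes with several measured probe sets, each classed by the mean log2 signal of these. Elsewhere genes were classed with the same limits by their brightest probe sets alone. By these, Snai2, Twist1, Zeb1 and Zeb2 lay in the brightest class, and Snai1 and Twist2 in the middle class. The dimmer probe sets of Zeb1 and Zeb2 would place these 2 genes lower by the mean. MAS5 signals of different probe sets cannot be set against each other, so the levels of the 6 genes are not ranked.

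Snai2, also known as Slug, is a repressor of cadherins found in cushion mesenchyme. Its brighter probe set, 1447643_x_at, read 5643 on the control array and 3047 on the mutant array. Its other probe set, 1418673_at, read 709 and 398. Both readings were thus lower in the mutant, at 54.0% and 56.2% of control. The log2 ratios were -0.89 and -0.83, with a mean of -0.86 and an SD of 0.04 over 2 probe sets. The first of these carries the suffix for probe sets whose probes may match other transcripts, and the second does not and is paired with the RefSeq mRNA of the gene. Snai2 had the largest difference of the 6 genes. Of 4347 measured genes in the brightest class, 43, or 0.989%, had a ratio at or below that of Snai2, itself included.

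Snai1 encodes Snail, a repressor of the cadherins and of junction genes like Snai2. Its 1 probe set read 711 on the control array and 508 on the mutant array, 71.5% of control. The log2 ratio was -0.48, which exceeds the SD of 0.37 between probe sets of a gene at this brightness. In this class 11.1% of 4969 measured genes were at or below the ratio of Snai1. The ratio of Snai2 was lower than that of Snai1 by 0.40 on the log2 scale, less than the 0.46 that the probe set SDs of the classes give for a difference between these 2 genes.

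Twist1, a basic helix-loop-helix factor of cushion mesenchyme, read 4458 on the control array and 3101 on the mutant array from its 1 probe set. The mutant signal was 69.6% of control, a log2 ratio of -0.52, and 3.89% of the measured genes in the brightest class were at or below it. Twist2, the closely related factor also called Dermo1, read 232 on the control array and 295 on the mutant array. It was thus higher on the mutant array, at 127% of control and a log2 ratio of 0.35, about the SD of 0.37 between probe sets in its class. In that class 16.5% of the measured genes were at or above the ratio of Twist2. The ratios of the related factors stood 0.87 apart on the log2 scale, against 0.46 from the probe set SDs of their classes. Each of these genes rests on 1 probe set, so the opposite signs have no second reading on the arrays.

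Zeb1 encodes a zinc finger and homeodomain repressor of cadherin genes. Its brightest probe set, 1418926_at, read 2467 on the control array and 1908 on the mutant array, a log2 ratio of -0.37. The dim probe set 1443005_at read 195 and 129, a ratio of -0.60, and 1446127_at read 124 and 102, a ratio of -0.28. All 3 were lower in the mutant, with a mean of -0.42 and an SD of 0.17 over probe sets. The fourth, 1420243_at, read 1.06 and 0.358, far below the floor on both arrays, and gives no ratio. By the brightest probe set, 9.04% of measured genes in the brightest class were at or below Zeb1.

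Zeb2 encodes the related repressor also called SIP1, which binds receptor-activated Smad proteins. Its brightest probe set, 1422748_at, read 1272 on the control array and 986 on the mutant array, a log2 ratio of -0.37. The next, 1434298_at, read 436 and 388, a ratio of -0.17, and 1456389_at read 344 and 308, a ratio of -0.16. Each of the 3 was lower in the mutant, with a mean of -0.23 and an SD of 0.12 over probe sets, so the size of the Zeb2 difference depends on the probe set, and the median over them was -0.17. Of the remaining probe sets, 1454200_at read 95.0 and 50.01, just above the floor in the control and below it in the mutant, and 1458941_at read 58.2 and 50.4, below both floors. By their brightest probe sets Zeb1 and Zeb2 had the same ratio to 2 decimals.

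**Figure D2:**
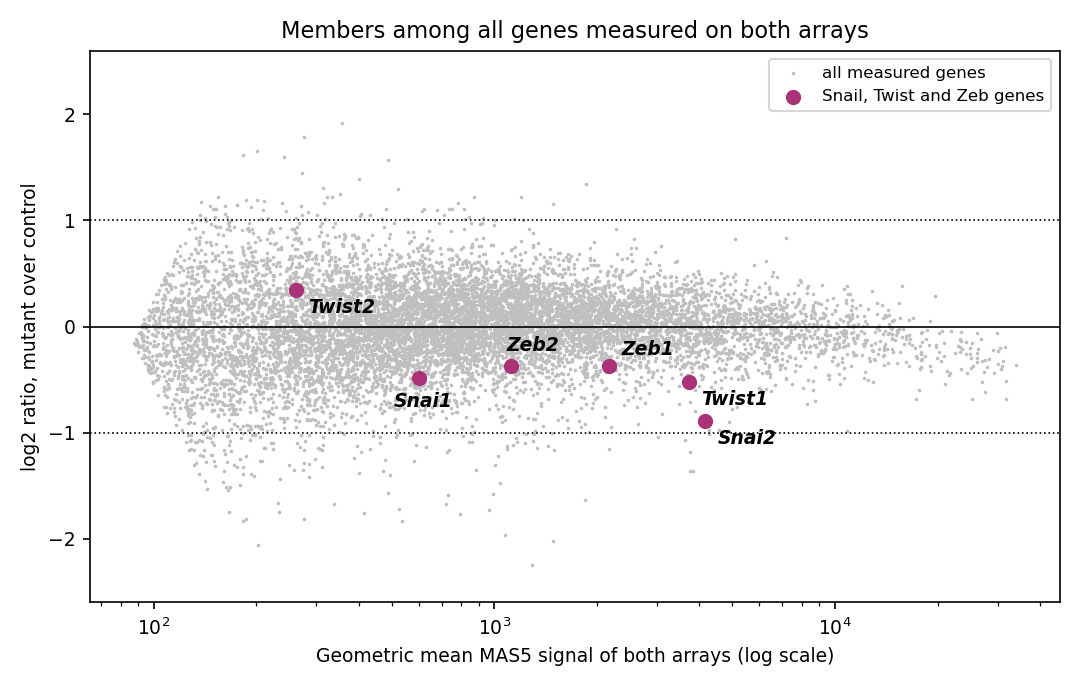
Log2 ratio of mutant over control against the geometric mean signal of both arrays on a log axis, for all 10665 measured genes in grey and the 6 Snail, Twist and Zeb genes as large labelled points, with dotted lines at 2-fold. Snai2, at -0.89, lies near the lower edge of genes of its brightness, and Twist2, at 0.35, is the labelled point above 0.

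Counts in the lists of related genes below stand beside the 51.0% of all measured genes that were lower. The lists were chosen with earlier results of these data known. The direct relatives of Snail gave little signal. Of Snai3, Scrt1 and Scrt2, the last was measured, at 114 on the control array and 98.8 on the mutant array, and the others were below both floors. Among 9 partners, inhibitors and relatives of Twist, all measured, 8 were lower in the mutant, with a median log2 ratio of -0.26. The median was -0.17 with quantile normalization and -0.16 with loess. Partners and inhibitors stand together here, so the median gives no direction of Twist activity. Named after their values were seen, Id4 was at -0.01 and Tcf3 at -0.11, with another probe set of Tcf3 at 0.94. Tcf12, an E protein that pairs with Twist, read 4224 and 2868, a ratio of -0.56, with its probe sets between -0.67 and -0.12. Id1, an inhibitor of E proteins, was at -0.33, and Hand2, a Twist-related factor of the heart, at -0.31, with another probe set of Hand2 at 0.14. None of the 9 was at least 2-fold different.

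Of 16 corepressors and cofactors of Snail and Zeb, 8 were lower and 8 higher, and the median log2 ratio was -0.03. The widest were Sin3a, a corepressor scaffold, at 0.43, Smad4, the common Smad, at -0.32, and the LIM protein gene Limd1 at -0.24. The probe sets of Sin3a reached down to -0.21 and those of Smad4 up to 0.23. Of 10 measured regulators of Snail and Twist stability, 6 were lower and 4 higher, with a median of -0.02, or 0.18 over the 7 above a floor at the 75th percentile. Lats2, a kinase of the Hippo pathway, was at -0.72, yet its 4 measured probe sets ranged from -0.72 to 0.58. Csnk2a1, a subunit of casein kinase 2, was at 0.40, the highest of its 5 measured probe sets, which reached down to 0.07. Btrc, the F-box protein that marks phosphorylated Snail for degradation, was at 0.34, with another Btrc probe set at -0.16.

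Of 29 genes upstream of cushion EMT, all measured, 20 were lower and 9 higher. Their median log2 ratio was -0.27, but -0.13 with the floor at the 75th percentile, -0.10 when a gene took the median of its probe sets and -0.08 with probe sets paired with a RefSeq mRNA alone. Bmp2, the myocardial and endocardial ligand that starts cushion EMT, read 386 and 142 from 1 probe set and was the single member at least 2-fold different. Named after their values were seen, Tgfb2 was at -0.95 with its probe sets between -0.95 and -0.31, and the Notch target Heyl at -0.93. The receptor gene Tgfbr2, also named so, was at -0.61, and a second probe set of it at 0.88. Among the higher members, likewise outside the rule, the ligand gene Tgfb1 read 2257 and 3502, a ratio of 0.63 from 1 probe set. The T-box factor gene Tbx5 was at 0.42 and the coreceptor gene Tgfbr3 at 0.37. This list holds ligands, receptors and targets alike, so its median gives no direction of signalling.

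Genes that the factors are known to repress did not share 1 direction. Of 19 listed, 12 were measured, 4 lower and 8 higher on the mutant array, with a median log2 ratio of 0.16. The median was 0.06 with the floor at the 25th percentile, where 7 of 16 were lower, 0.02 with unsuffixed probe sets and 0.07 when a gene took the median of its probe sets. Dsp, the desmosome gene desmoplakin, read 1007 and 283, a ratio of -1.83, the single member at least 2-fold different. Another probe set of Dsp was at -0.99. Named after their values were seen, Cdh5, the endothelial cadherin, read 10886 and 10975, a ratio of 0.01, and Cdh1, the epithelial cadherin, was below the floor on both arrays. The other lower members, all named outside the rule, were the endothelial claudin gene Cldn5, which read 900 and 556, a ratio of -0.70, the polarity gene Crb3 at -0.41 and the splicing factor gene Esrp2 at -0.24. Among the higher members, also outside the rule, were the keratin genes Krt8, Krt18 and Krt19, at 0.98, 0.27 and 0.37. Krt8 read 118 and 232, near the control floor, and another probe set of it was at 0.47. Cdh5, Cldn5 and Pecam1 are also on the endothelial list, and Krt8 and Krt19 on the epicardial list. The 12 genes of the epicardial list had a summed signal of 5417 on the control array and 9542 on the mutant array. The part of epicardial cells in these keratin values was not tested.

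Of 16 measured mesenchymal genes that are known to rise in EMT, 14 were lower in the mutant, with a median log2 ratio of -0.17. With quantile normalization 11 of the 16 were lower, with a median of -0.06, and with loess 12, with a median of -0.10. The matrix genes Postn and Vcan were at -0.73 and -0.50, and S100a4, a calcium-binding protein gene, at -0.60. Named after its value was seen, Vim, which encodes the intermediate filament vimentin, read 35185 and 27117, a ratio of -0.38, with all 3 of its probe sets lower. Cdh2, the mesenchymal cadherin, named likewise, was at -0.16, with another probe set at -0.94. None of the 16 was at least 2-fold lower.

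Markers of other cell types moved beside these values. Over all measured genes 51.0% were lower and 1.46% at least 2-fold lower. These marker lists were chosen with earlier results of these data known, so their counts are descriptive. Of 12 cushion mesenchyme markers, a list that shares 4 genes with the mesenchymal one, 11 were lower, 4 of them at least 2-fold, with a median log2 ratio of -0.62 and a summed signal of 60296 on the control array and 46225 on the mutant array. Of 9 measured endocardial markers, 7 were higher, with a median of 0.16. When a gene took the median of its probe sets, 4 of these 9 were lower, with the same list median. Of 10 endothelial markers 7 were higher, with a median of 0.07. All 9 measured epicardial markers were higher, with a median of 0.87, which lay between 0.59 and 0.98 over the alternatives. With the floor at the 25th percentile, 1 of 12 epicardial markers was lower. Smooth muscle and pericyte markers had 5 of 7 lower and a median of -0.16, and their summed signals were 11695 and 10140. Of the 10 myocardial markers 5 were lower, with a median of -0.07, though their summed signals were 22778 and 25230. Erythroid markers had 4 of 5 lower, 2 of them at least 2-fold, and summed signals of 12055 and 8187. Their median of -0.97 was below that of the cushion mesenchyme markers, and the remaining gene, Epor, was at 0.51. Neural crest and neural markers had summed signals of 7200 and 11139, most of it from Ednrb, with Tfap2a, Tfap2b and Foxd3 below both floors and Sox10 above the floor in the control only. Leukocyte markers summed to 653 and 564, with Ptprc, Adgre1, Lyz2 and Fcgr3 below both floors. Cd68 was measured, at 93.8 on the control array, just above the floor, and 162 on the mutant array. Csf1r, at 144 and 80.6, and Cx3cr1, at 226 and 47.8, were above the floor in the control only. Aif1, at 70.9 and 99.5, was above it in the mutant only. The part of these cell types in the values of the 6 genes was not tested.

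**Figure D3:**
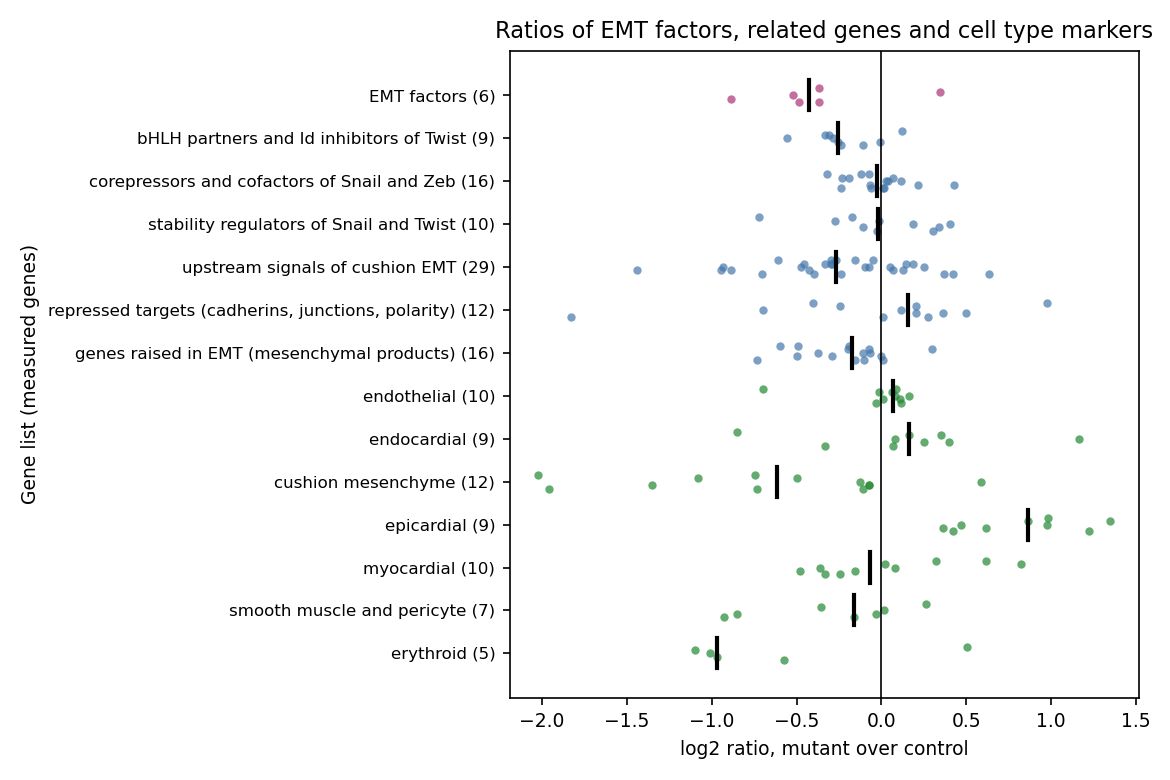
Log2 ratios of mutant over control for the measured genes of each list with 5 or more of them, 1 point per gene, with the list median as a black bar and the number measured in brackets. The EMT factors have their median at -0.43. The medians are -0.26 for the Twist partners and inhibitors, -0.27 for the upstream genes and -0.17 for the mesenchymal products. They are -0.62 for the cushion mesenchyme markers and -0.97 for the erythroid markers, while the endothelial median is 0.07 and the epicardial median 0.87.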

How the data were processed

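Expression was read on 1-colour Affymetrix arrays, 1 of control and 1 of mutant sorted cells. The deposited values are linear intensities, 1 per probe set, which per the submitters' processing notes the authors computed with MAS5. The mean after trimming 2% of probe sets at each end was 500.0 on both arrays. Version and settings of MAS5 were not given in the sources used here. MAS5 subtracts mismatch probes, which makes dim ratios noisy, and scales each array by a single factor. Of 45101 probe sets, 64 were array controls, 34945 named 1 gene, 932 several and 9160 were not listed. Gene values came only from those naming 1 gene, while floors and alternative scalings drew on non-control probe sets of every kind.

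Values under each array's median (percentile 50) over its non-control probe sets were set to that median, then log2 ratios of mutant over control were taken. Each gene was represented by its probe set of highest mean signal on the log2 scale. The sum of a list runs over all its genes with a probe set, at their values as deposited. Differences are described by a size of 2-fold, with no p-value, and 1 array per genotype limits the precision. The members and the gene lists were chosen with earlier results of these data known. Members are all named. From each list of related genes the rule names those at least 2-fold different, or else up to 3 with the largest ratios, and other names are said to be outside it. Alternatives were scaling to the median, quantile normalization, loess (span 0.3), other floors and folds, a pseudocount, and other choices of probe set. The steps were tested on simulated data. Python 3.11.15, pandas 2.3.3 and statsmodels 0.14.6 were used.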

Additional observations from a re-analysis of the deposited data

How the results depend on the processing

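The direction of each of the 6 ratios was the same under every alternative that measured the gene. Part of this was fixed in advance. Snai1, Twist1 and Twist2 have 1 probe set each, so another choice of probe set could not change their ratios. Another floor could only decide whether a gene was measured, not its ratio. Over the alternatives the log2 ratio of Snai2 lay between -0.89 and -0.83, Twist1 between -0.53 and -0.52, Snai1 between -0.51 and -0.44, Zeb1 between -0.41 and -0.36, Zeb2 between -0.42 and -0.17, and Twist2 between 0.22 and 0.39. The value of -0.17 for Zeb2 came from the median over its probe sets. The median of the 6 lay between -0.46 and -0.40, while that of all measured genes lay between -0.03 and 0.02. With the floor at the 75th percentile Snai1 and Twist2 were not measured, and the other 4 genes were all lower. With a fold of 2, the count of the 6 genes past it as lower was 0 under each other scaling, floor and choice of probe set. With a fold of 1.5 it was 1, Snai2, and with a fold of 3 it was 0. The use of probe sets paired with a RefSeq mRNA was chosen after seeing the data and gave -0.83 for Snai2. Medians of the cofactor, stability and myocardial lists changed sign between alternatives. No paired analysis was possible because each genotype has 1 array. Signal over background limits the Twist2 reading and those of the dim Zeb1 and Zeb2 probe sets.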
